A study of Homo sapiens with 2 samples.

Results

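The genes described here encode subunits of ATP-dependent chromatin remodelling complexes and proteins that share their names or domains. They were taken by gene symbol from the skipped-exon events of HEK293T cells: symbols starting with SMARC, ARID or INO80, CHD followed by a single digit, and BRD7, BRD9, PBRM1, BPTF, ATRX, EP400, SRCAP, MTA1, MTA2 and MTA3. The symbols took 775 of 113456 events, which held 497 of 67154 distinct exons in 46 of 11965 genes. HEK293T is a transformed human embryonic kidney line. Poly-A+ RNA was sequenced from 1 untreated control library and 1 library of cells given 300 µg/mL amiloride for 6 h, a diuretic that blocks sodium channels and sodium-proton exchange and is also used to perturb splicing. The read counts and inclusion levels of the 2 libraries stand under column numbers that match neither library's label. They were therefore not used, and control and amiloride were not compared. What follows describes which exons were listed, where they lie and what their sequences and annotation hold. An event in the list says that the event was defined in these libraries together with a gene annotation, and gives neither the number of reads behind it nor its depth.

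Chromatin remodellers use ATP hydrolysis to slide, evict or restructure nucleosomes or to exchange their histones. They are grouped by their ATPase into the SWI/SNF, ISWI, CHD and INO80 families, and each ATPase works with accessory subunits that bind DNA, histone tails or other proteins. Many of the subunits come as paralogs or splice forms that replace each other in the complex, so that a cell holds several versions of it. The symbol rule also took genes outside these complexes: the ARID3, ARID4 and ARID5 genes, which share a DNA-binding domain with ARID1A, and SMARCAL1 and SMARCAD1, which are related helicases. INO80B-WBP1 is a read-through of neighbouring genes, and 2 of its exons were also listed under the second gene's symbol.

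Short exons that keep the reading frame add or remove a few codons, so their sequences show most directly what the alternative forms of these proteins differ by. Shown are some of the exons of up to 60 bases that lie whole within annotated coding sequence and have a length divisible by 3. They are also skipped in an annotated protein-coding transcript, and 1 longer exon of ATRX is shown with them. Other short exons that meet the same rules are not shown. The choice was made after the exons had been seen. Capitals mark the exon, and lower case marks 20 intronic bases before it and 6 after it, all on the strand of the gene in GRCh37.
ARID4A 45-base exon: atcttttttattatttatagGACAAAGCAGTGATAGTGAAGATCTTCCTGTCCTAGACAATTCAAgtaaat
MTA1 exon 4: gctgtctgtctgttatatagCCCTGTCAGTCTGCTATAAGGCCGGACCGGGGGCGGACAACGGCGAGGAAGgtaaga
MTA1 exon 18: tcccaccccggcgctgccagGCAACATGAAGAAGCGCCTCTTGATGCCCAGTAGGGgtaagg
SMARCAL1 exon 6: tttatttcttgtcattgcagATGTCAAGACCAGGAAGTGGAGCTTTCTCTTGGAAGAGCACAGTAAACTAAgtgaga
ARID1B 39-base exon: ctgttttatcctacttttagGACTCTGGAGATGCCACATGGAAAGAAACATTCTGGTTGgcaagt
SMARCA2 exon 29: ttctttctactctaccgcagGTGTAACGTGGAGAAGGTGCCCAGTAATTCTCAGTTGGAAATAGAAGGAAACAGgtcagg
ATRX exon 6: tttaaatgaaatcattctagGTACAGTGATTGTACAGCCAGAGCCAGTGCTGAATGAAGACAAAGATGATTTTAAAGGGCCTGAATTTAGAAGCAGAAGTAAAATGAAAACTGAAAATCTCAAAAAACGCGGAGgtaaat
The exons lie at chr14:58832742-58832786 (ARID4A 45-base exon), chr14:105915696-105915746 (MTA1 exon 4), chr14:105933044-105933079 (MTA1 exon 18), chr2:217288356-217288406 (SMARCAL1 exon 6), chr6:157192748-157192786 (ARID1B 39-base exon), chr9:2170419-2170472 (SMARCA2 exon 29) and chrX:76949313-76949426 (ATRX exon 6). The ARID4A 45-base exon is a shorter form of exon 22 (207 bases) that starts at the same base. It therefore differs from exon 22 by 162 bases at its end. SMARCA2 exon 29 (of 34) belongs to the gene of a SWI/SNF ATPase. MTA1, a scaffold of the histone deacetylase complex NuRD, contributed 2 of the exons shown. The 3' splice sites (3'SS) of the printed exons scored from 2.57 (MTA1 exon 18) to 13.69 (ARID4A). In between lay ATRX exon 6 (3.84), MTA1 exon 4 (5.61), the ARID1B exon (10.96), SMARCA2 exon 29 (11.97) and SMARCAL1 exon 6 (13.24). The score adds up, position by position, the log2 of how much more frequent a base is at annotated splice sites than if all bases were equally frequent. The mean over all 497 exons was 8.92 ± 3.75 (SD over exons).

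The listed exons covered different shares of the genes. Of the internal exons of the canonical transcript, the median gene had 53.4% listed (quartiles 37% and 63.4%, 46 genes), and the median over the 10942 other genes was 57.1% (quartiles 33.3% and 78.9%). All internal exons were listed in 3 genes, SMARCD1 (11 exons), INO80C (3) and INO80E (5). SMARCC1 followed with 24 of 26 and MTA1 with 17 of 19. At the other end were CHD5 with 4 of 40, ARID3A with 1 of 7 and CHD8 with 7 of 36. At least 1 skipping junction of an exon was an intron of an annotated transcript in 36 of the 46 genes.

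**Figure D1:**
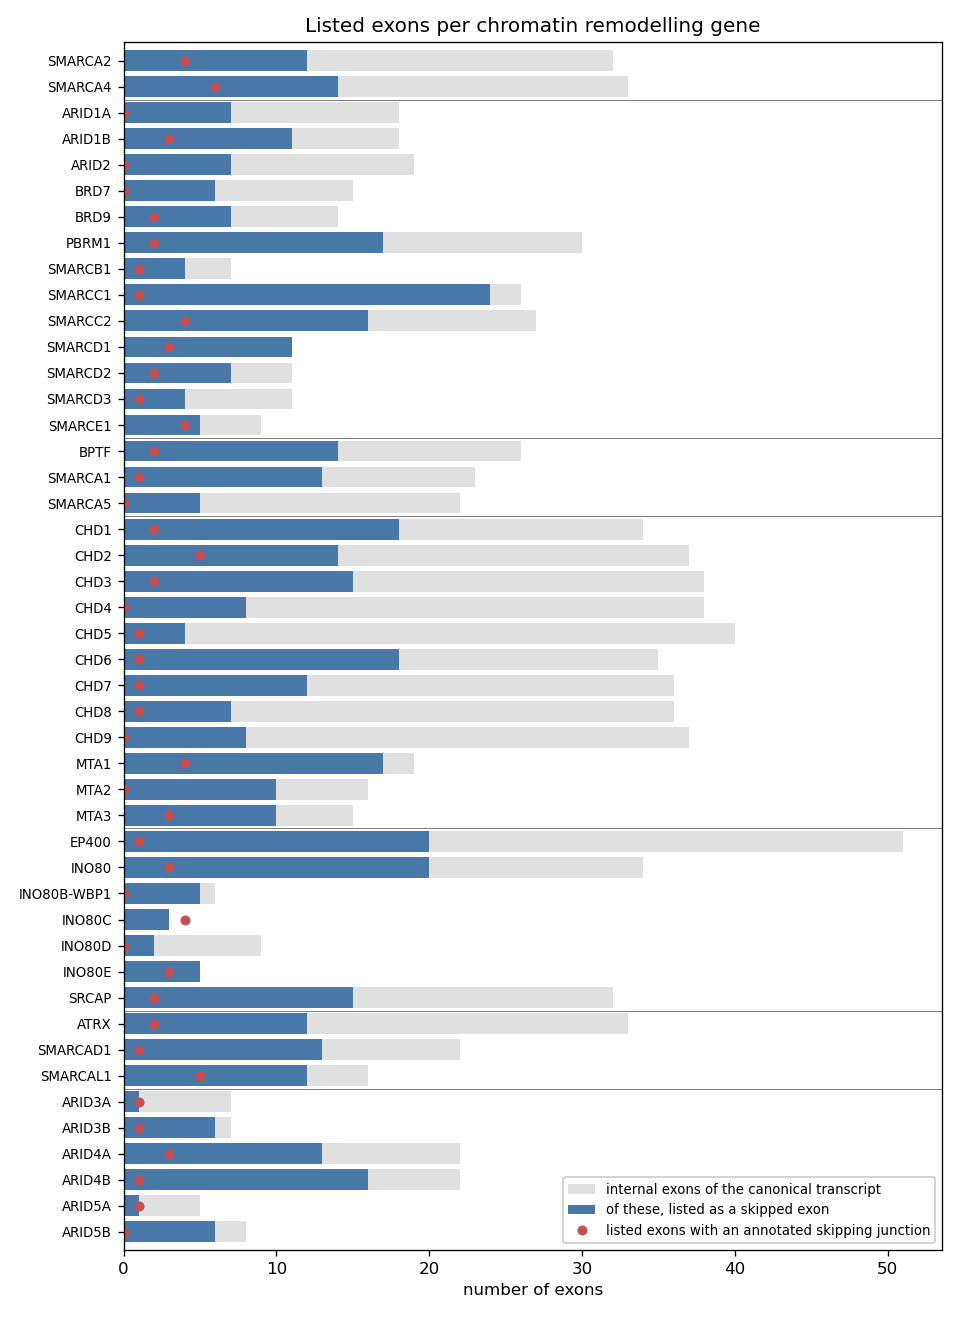
Number of exons (horizontal axis) for each of the 46 genes (vertical axis), with lines between the complexes. Grey bars are the internal exons of the canonical transcript, blue bars those listed as a skipped exon, and red points the listed exons, also outside that transcript, with an annotated skipping junction; SMARCC1 has 24 of 26 internal exons listed and CHD5 has 4 of 40.

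The catalytic subunits of SWI/SNF had 29 exons in 35 events, 12 in SMARCA2 and 17 in SMARCA4. These are the mutually exclusive ATPases BRM and BRG1. An annotated skipping junction was found for 10 of the 29 exons, and all 10 were skipped in a protein-coding transcript. Of these 10, 6 had a length divisible by 3. SMARCA4 held 6 of the 10, among them a 96-base exon at chr19:11150134-11150229 that lies outside the canonical transcript. SMARCA2 held 4, exons 2, 3, 25 and 29. The exon in most events was SMARCA2 exon 24 (chr9:2110254-2110417, 164 bases) with 2 events, tied with 1 more exon of SMARCA2 and several of SMARCA4. The shortest was SMARCA2 exon 22 (chr9:2101570-2101616, 47 bases), tied with an exon of SMARCA4. The longest was a 263-base form in SMARCA4 at chr19:11151974-11152236.

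The other subunits of BAF, PBAF and ncBAF, the 3 assemblies of SWI/SNF, made up 132 exons in 234 events. The core subunits SMARCC1 and SMARCC2, which hold the complex together, had 24 and 17 exons, and SMARCC1 alone had 64 events. SMARCD1, SMARCD2 and SMARCD3, alternative versions of the same subunit, had 11, 7 and 4 exons. SMARCE1 and SMARCB1 had 5 each. The subunits that tell the assemblies apart were ARID1A (7 exons) and ARID1B (12) for BAF, ARID2 (7), PBRM1 (19) and BRD7 (6) for PBAF, and BRD9 (8) for ncBAF. The 3 annotated skips of ARID1B and the 3 of SMARCD1 were all in coding transcripts and all kept the frame. SMARCD1 exon 6 (chr12:50482304-50482420, 117 bases) was in 6 events, the most in this group. The shortest exon was SMARCC1 exon 13 (chr3:47730877-47730914, 38 bases) and the longest PBRM1 exon 18 (chr3:52643329-52643971, 643 bases). PBRM1 encodes a protein with several bromodomains, which bind acetylated histones.

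Among the ISWI and NURF genes, the ATPases SMARCA1 and SMARCA5 had 13 and 5 exons, and BPTF, the large histone-reading subunit of NURF, had 16. An annotated skip was found for 3 exons, among them a pair of 189-base exons of BPTF, and all 3 kept the frame. The second of the pair (chr17:65882244-65882432) was in 3 events, the most in the group. The longest exon of the group was BPTF exon 2 (chr17:65850056-65850878, 823 bases).

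The CHD and NuRD genes gave 145 exons in 215 events. CHD3, CHD4 and CHD5 are the alternative ATPases of NuRD and had 15, 8 and 4 exons. CHD1 and CHD2 had 18 and 14, and CHD6, CHD7, CHD8 and CHD9 had 18, 12, 8 and 8. The scaffold subunits MTA1, MTA2 and MTA3 had 18, 10 and 12. An annotated skip was found for 20 exons, 8 of them in a coding transcript. None of the exons of CHD4, CHD9 or MTA2 had one. CHD6 exon 5 (chr20:40141485-40141634, 150 bases) was in 5 events, as was MTA1 exon 3, and no exon of the group was in more. MTA1 exon 19 (chr14:105935804-105935835) was the shortest of all 497 exons at 32 bases. The longest in the group was CHD7 exon 2 with 1839 bases.

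In the INO80 family, INO80 and EP400 had 20 exons each and SRCAP had 15. These ATPases move nucleosomes or exchange histone variants. The smaller subunits were INO80C (5 exons), INO80D (2) and INO80E (7), and INO80B-WBP1 had 5. INO80C, with 5 exons in 16 events, had an annotated skip for 4 of them, and INO80E for 3 of 7. INO80 and SRCAP had 3 and 2 exons with an annotated skip, none of them in a coding transcript. INO80C exon 4 (chr18:33058246-33058313, 68 bases) was in 4 events, as were 2 more exons of the gene, and had the highest 3'SS score of the 497 exons, 19.28. The shortest exon was INO80E exon 3 (chr16:30008129-30008181, 53 bases) and the longest SRCAP exon 25 (chr16:30734905-30736403, 1499 bases).

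The other helicases were ATRX (12 exons), which deposits histones in heterochromatin with its partner DAXX, SMARCAD1 (14) and SMARCAL1 (12), which anneals DNA at stalled replication forks. The frame was kept by 11 of the 38 exons. The longest of all 497 exons was ATRX exon 9 (chrX:76937012-76940085, 3074 bases). The exon in most events was SMARCAL1 exon 13 (chr2:217329320-217329390, 71 bases, 3 events), tied with exons 14 and 15 of the gene, and the shortest was SMARCAL1 exon 2 (chr2:217278579-217278615, 37 bases). Among the other ARID genes, ARID4A and ARID4B, which act with the SIN3 deacetylase complex, had 14 and 16 exons. ARID3B had 7, ARID5B 6, and ARID3A and ARID5A 1 each. ARID4B exon 8 (chr1:235403628-235403766, 139 bases) was in 7 events, the most of any of the 497 exons. The ARID4A exon of 45 bases was the shortest of these genes and ARID4B exon 20 (chr1:235344900-235346108, 1209 bases) the longest. All 6 exons of these genes that were skipped in a coding transcript kept the frame. Among the 6 are overlapping forms of ARID4A exon 22 (45 and 207 bases).

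Over all genes, 202 of the 497 exons had a length divisible by 3, which is what keeping the frame means throughout, whether or not the whole exon is coding. This was 40.6% (95% Wilson interval 36.4–45.0%), beside 38.8% (38.4–39.2%) of the 66657 other exons. Among the 482 exons that lay whole within annotated coding sequence it was 40.9%. The intervals here and below cover counting error only, and exons of 1 gene are not independent. These 482 are 97.0% of the exons, beside 90.1% of the others. Both splice sites were annotated for all 497, beside 99.4% of the others. The skipping junction was annotated for 84 exons, 16.9% (13.9–20.4%), beside 26.0% (25.7–26.3%) of the others. It belonged to a protein-coding transcript for 56 exons, 11.3% (8.78–14.3%), beside 17.4% (17.1–17.7%).

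The share of frame-keeping exons differed with the annotation of the skip. Where the exon was skipped in a protein-coding transcript, 43 of 56 exons kept the frame, 76.8% (64.2–85.9%). The same share was 54.5% (53.6–55.4%) of 11585 other exons. Restricted to exons whole within coding sequence, it was 83.7% of 49 and 60.5% of 9047. Where the skip was annotated in other transcripts only, 4 of 28 exons kept it, 14.3% (5.70–31.5%), beside 19.6% of 5745. Of these 28 exons, 21 were skipped in a transcript annotated as a target of nonsense-mediated decay, the pathway that degrades transcripts with a premature stop codon. This was 75% (56.6–87.3%), beside 52.5% (51.2–53.8%) of the 5745 others. Where none of the exon's listed skipping junctions was an annotated intron, 155 of 413 kept the frame, 37.5% (33.0–42.3%), beside 37.4% of 49327. The reading frame also enters the annotation of a transcript as coding, and its part in these shares was not tested. The difference between these genes and the others was not tested either.

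**Figure D2:**
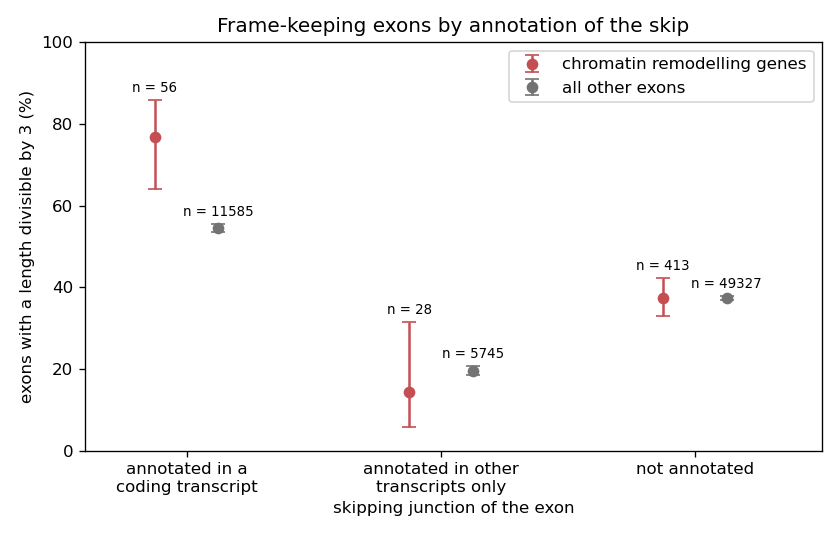
Share of exons with a length divisible by 3 (vertical axis, percent) by the annotation of the skipping junction (horizontal axis), for exons of the chromatin remodelling genes (red) and all other exons (grey), with 95% Wilson intervals and the number of exons. Of the exons skipped in a coding transcript, 76.8% of 56 and 54.5% of 11585 kept the frame, and the unannotated classes stood at 37.5% and 37.4%.

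Of the 56 exons skipped in a coding transcript, 12 lay outside the canonical transcript, and 9 of these kept the frame. Frame-keeping examples among SWI/SNF subunits were SMARCB1 exon 4 (138 bases), SMARCC2 exon 18 (93 bases), PBRM1 exons 10 and 29 (96 and 156 bases) and SMARCD2 exon 11 (123 bases). SMARCD1 exon 11 has the same length as its paralog's exon 11, 123 bases. The examples were chosen after the values were seen. The 13 exons that did not keep the frame included ATRX exon 2 (113 bases) and SMARCA4 exons 14 and 15 (122 and 151 bases). SMARCE1 exons 2 and 3 (52 and 44 bases) were also among them. The lengths of these SMARCE1 exons add up to a multiple of 3. SMARCE1 exon 2 is not wholly coding, so this sum does not show that the reading frame is kept.

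The exons were of ordinary size for the list. Their median length was 123 bases (quartiles 90 and 162), and that of the other exons 114 (83 and 154). No exon was 27 bases or shorter. The shortest intron before an exon had a median of 2126 bases and the shortest intron after it 2075, beside 2201 and 2002 for the others. More than 1 event was listed for 177 exons, 35.6% (31.5–39.9%), beside 40.1% (39.7–40.4%).

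An exon enters more than 1 event when several junctions leap over it. For 727 of the 775 events, the exon and both outer splice sites could be placed on the canonical transcript. They gave 609 distinct skipping junctions. Of these, 61.2% (57.3–65.0%) left out 1 canonical exon, 21.3% left out 2, 8.05% left out 3 and 9.36% left out 4 or more. Over the 77532 junctions of other genes the shares were 57.7%, 21.1%, 9.54% and 11.6%. Junctions that left out 1 exon kept the frame in 40.8% of cases (35.9–45.8%), and those that left out 2 or more in 40.3% (34.2–46.6%). In other genes these shares were 39.8% and 40.2%. The longest leap was in MTA1, where a junction left out 16 canonical exons. SMARCC2, SMARCD1 and ARID4B had junctions that left out 8. SMARCC1 had the most junctions, 45, of which 23 left out 2 or more exons, and ARID4B followed with 31, of which 18 did. Genes with no junction that left out more than 1 were CHD9 (8 junctions), CHD5 and SMARCB1 (4 each), SMARCD3 (3), INO80D (2), and ARID3A and ARID5A (1 each).

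The 5' splice sites (5'SS) of the 497 exons scored 7.67 ± 2.64 on average and the 3'SS 8.92 ± 3.75 (SD over exons), beside 7.77 ± 2.82 and 9.10 ± 3.46 for the other exons. For the exons skipped in a coding transcript, the means were 6.92 ± 3.78 and 8.25 ± 4.01. The first of these rests in part on 2 exons with a GC in place of the GT. Among the 54 exons of this class between an AG and a GT, the 5'SS mean was 7.53 ± 2.07, beside 7.84 ± 2.10 for 409 such exons with no listed skipping junction annotated. The 3'SS means of the same exons were 8.17 ± 4.06 and 9.05 ± 3.61. For the 28 exons skipped in other transcripts only, the means were 8.28 ± 2.14 (5'SS) and 9.04 ± 3.48 (3'SS). Among the other exons between an AG and a GT, those skipped in a coding transcript had means of 7.84 (5'SS) and 8.96 (3'SS). Those with no listed skipping junction annotated had 7.99 and 9.18, and those skipped in other transcripts only 7.78 and 8.98. These differences were not tested.

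**Figure D3:**
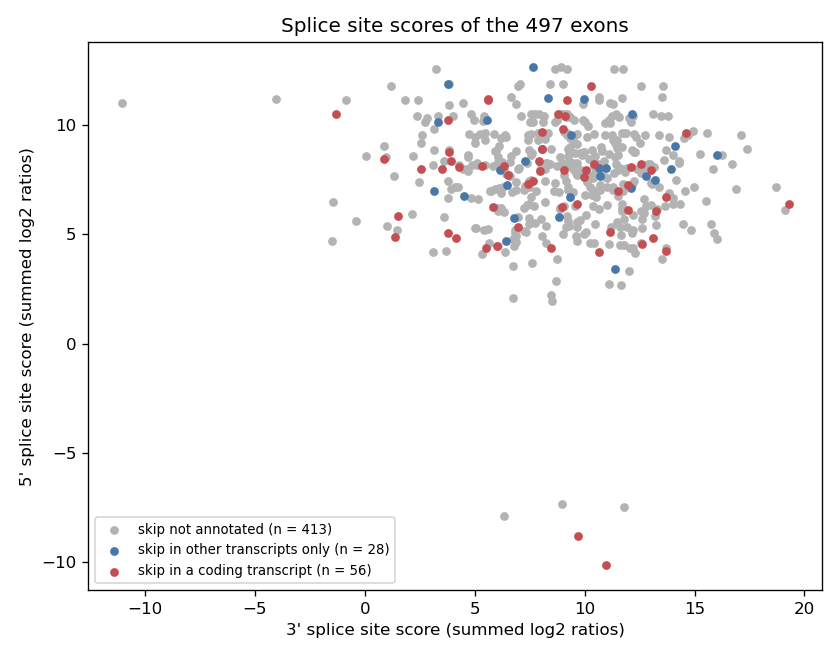
Score of the 5'SS (vertical axis) against that of the 3'SS (horizontal axis), both as summed log2 ratios, for each of the 497 exons, coloured by the annotation of the skipping junction. The 5 points with a 5'SS score below 0 are the GC sites, and the point at a 3'SS score of -11.06 is the SMARCA4 exon that does not follow an AG. The base frequencies came from GT and AG sites only, so these low scores follow from that choice.

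An AG before the exon and a GT after it were found for 98.8% (97.4–99.4%), beside 98.9% of the others, and were not both found for 6 of the 497. In 5 of them the intron began with GC, the usual minor form of the 5'SS, which is 1.01% (0.430–2.33%) of exons beside 0.95% of the others. The windows hold the last 3 exonic and first 6 intronic bases, with the first 2 intronic bases in capitals.
EP400 exon 8: cagGCgagt
SMARCAL1 exon 5: atgGCaagt
BRD9 exon 11: gagGCaagt
BRD9 exon 3: cagGCaagg
ARID1B 39-base exon: ttgGCaagt
The exons lie at chr12:132474509-132474649 (EP400 exon 8), chr2:217285022-217285255 (SMARCAL1 exon 5), chr5:878470-878602 (BRD9 exon 11), chr5:891270-891402 (BRD9 exon 3) and chr6:157192748-157192786 (ARID1B 39-base exon). Both BRD9 exons are 133 bases long and were in 4 and 2 events. In the sixth exon, the 263-base form of SMARCA4, the 3'SS ends in TG. The window holds 20 intronic and 3 exonic bases, with the last 2 intronic bases in capitals.
SMARCA4 263-base exon: gtcctattttactactatTGacc
The SMARCA4 exon was also listed as the longer form of an alternative 3'SS that adds 9 bases.

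The same genes had few events of most other types. Alternative 3'SS numbered 18 of 2868 events in 10 genes, alternative 5'SS 7 of 2620 in 6 genes, retained introns 1 of 677, and mutually exclusive exons 262 of 39869 in 39 genes. As a share of each type these were 0.628%, 0.267%, 0.148% and 0.657%, beside 0.683% of the skipped-exon events. The 18 alternative 3'SS events held 13 distinct pairs of sites. In 7 of them the sites lay up to 12 bases apart, and in 4 exactly 3 bases apart, which adds or removes 1 codon. These are 53.8% (29.1–76.8%) and 30.8% (12.7–57.6%), beside 35.7% and 23.6% of 2419 pairs in other genes. The 4 pairs exactly 3 bases apart were in ARID3B, BRD7, MTA3 and SMARCA4. Of the 13 pairs, 9 differed by a multiple of 3, 69.2% (42.4–87.3%), beside 58.6% of the pairs in other genes. All 6 distinct pairs of alternative 5'SS differed by a multiple of 3, from 27 bases in SMARCB1 to 429 in BPTF. With 6 pairs the 95% interval of this share runs from 61.0% to 100%, and 43.7% (41.6–45.9%) of 2004 pairs in other genes differed by a multiple of 3. The retained intron was in SMARCC2 (chr12:56558153-56558431, 279 bases, also a multiple of 3). The 66-base exon on its 3' side was also listed as a skipped exon. A longer form that runs through the intron to the end of that exon, adding 345 bases, was listed as an alternative 5'SS. SMARCC1 had the most events of mutually exclusive exons, 39, then ARID4B with 28 and MTA1 with 17.

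The partners of these proteins that the symbol rule does not take were counted alongside. Of 61 listed symbols, 57 had at least 1 exon in the skipped-exon list, 416 exons in all. Of these, 36.3% (31.8–41.0%) had a length divisible by 3, and 18.5% (15.1–22.5%) had an annotated skip. TRRAP, a scaffold of acetyltransferase complexes, had 23 exons, BAZ1A, a partner of the ISWI ATPases, had 20, and BRD8 had 18.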

How the data were processed

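The deposited tables were made by the authors with rMATS, whose version is not given in the sources used here, from 1 control and 1 amiloride library. The submitters' processing notes name STAR 2.5.1 and the builds hg19 and GRCh37. Each row is an event, and the values used here are genome positions of exon edges, per the file headers. In the 5 tables, 30 columns of reads and inclusion levels number the libraries without naming them and were not used. Another 15 columns hold the authors' own comparison (a p-value, an FDR and a difference of inclusion levels) and were not used. No control against amiloride test was therefore run, and the depth per library is not given here.

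Events were collapsed to distinct exons and compared with GENCODE release 44 on GRCh37 and its genome. Overlapping forms of an exon that differ in their start or end were counted as distinct exons. Splice sites were scored with base frequencies of 300873 annotated GT and 300290 annotated AG sites (pseudocount 0.5). Sites without the GT or AG did not enter these frequencies. The low scores of the GC and TG sites therefore come from the pseudocount and do not measure the strength of the site. Shares have 95% Wilson intervals. The steps were tested on simulated data. Python 3.11.15, pandas 2.3.3, numpy 2.4.6, scipy 1.17.1 and matplotlib 3.10.9 were used. Members, gene lists and complexes were chosen with earlier results of these data known. Named were every gene with its number of exons, and per complex the exon in most events (ties by lowest start), the shortest and the longest; also exons of up to 27 bases and those not between AG and GT; partners by counts only. ARID3C and INO80B were not analysed here, and a few short exons that meet the rules for named or printed exons are not reported here. Alternatives left out exons not between AG and GT, exons in more than 1 event, or the ARID3, ARID4 and ARID5 genes with SMARCAL1 and SMARCAD1 (ATRX and INO80B-WBP1 stayed in). Others counted each event, kept wholly coding exons, or used a pseudocount of 1. Chosen after seeing the data, for exons skipped in a coding transcript, were the same genes left out, wholly coding exons, exons on the canonical transcript, and 1 exon per gene.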

Additional observations from a re-analysis of the deposited data

How the results depend on the processing

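Of 38 alternatives, 35 stayed within the 95% interval of the main value or, for counts, within 1.5 times of it. The other 3 came from keeping only exons listed in exactly 1 event, which by construction leaves fewer exons and 1 junction per exon: 320 exons remained, 13.1% of them had an annotated skipping junction, and the median downstream intron was 1745.5 bases, where the cause was not tested. The share of frame-keeping exons stood between 40.5% and 41.3% under every alternative run for it. For the frame share of exons skipped in a coding transcript, the alternatives were chosen after seeing the data and gave 73.9% to 83.7%. The comparison of inclusion between control and amiloride, and its alternative with at least 20 reads in each library, were not run because the columns do not name the libraries. No paired analysis was possible because the libraries could not be compared at all. The reads behind each event were not used, so events with few reads weigh as much as others.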
